A study of Mus musculus with 80 samples.

Results

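Wild-type lungs that had breathed 120 ppm styrene were set against wild-type lungs that had breathed 10 ppm, with no air lungs in the test. The comparison took every array whose title names C57Bl/6 WT lung at one of these doses, which gave 5 arrays at 120 ppm and 5 at 10 ppm, 10 of the 80 arrays of the series. All 10 came from whole lungs of adult male C57Bl/6 WT mice of Taconic, given a single 6 h inhalation of styrene and killed on the morning after it, per the labels. The titles call the arrays biological replicates. The other arrays used below are WT lungs at 40 ppm and in air (0 ppm), and lungs at 120 and 10 ppm of C57Bl/6 mice with a CYP2F2 knockout (KO), of CYP2F1 humanized C57Bl/6 mice (TG) and of CD-1 mice, 5 arrays a group. The sources used here do not say which promoter drives the human gene in TG, or whether the WT mice were littermates of KO or TG.

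Styrene is an aromatic solvent from which plastics are made. Club cells, the secretory cells that line the mouse bronchioles, carry CYP2F2, a cytochrome P450 that oxidizes styrene to reactive products, and these cells are the best known site of styrene toxicity in the mouse lung. Beneath the airway lining, the lung is a bed of vessels in which endothelium, pericytes, smooth muscle, elastic fibres and peptide signals such as endothelin, natriuretic peptides and adrenomedullin set the tone of the vessel wall.

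Levels are log2 signal as deposited, and a difference is in log2 units at 120 ppm minus 10 ppm, with its standard error from limma. A gene passed when its Benjamini-Hochberg adjusted p over all 11406 genes was under 0.05. The array medians ran from 4.532 to 4.603, and Pearson correlations were 0.994 to 0.997 among the 120 ppm arrays, 0.992 to 0.997 among the 10 ppm arrays and 0.992 to 0.996 between the groups. The lung markers were present: Scgb1a1, the club cell secretoglobin, averaged 13.73 at 120 ppm and 13.76 at 10 ppm, and the mean level of 9 alveolar type 2 markers ran from 11.69 to 11.78 at 120 ppm and from 11.63 to 11.74 at 10 ppm. The median difference over all genes was 0.0102, the median standard error was 0.0814, and the number of arrays limits the precision.

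Among the 10 ppm lungs, replicates 5 and 2 stood apart in different ways. In replicate 5, the level of Cyp1a1, the P450 that marks aryl hydrocarbon receptor (AHR) activity, was 5.09, whereas the other 4 lungs at 10 ppm had 7.43 to 7.87 and the 120 ppm lungs 4.26 to 5.33. The mean level of 19 chemokine and inflammation genes was 7.51 in that lung, above the 6.78 to 6.97 of the 120 ppm lungs, and WT 10 ppm replicate 1 stood at 7.29. Replicate 2 had the lowest limma array weight of the 10 lungs, 0.456 against 0.689 for replicate 5, and lay at the far end of the second principal component (17.1). The labels give all of these lungs as 10 ppm, and they were kept there. Whether replicate 5 was labelled or handled differently was not tested, and scan batches are unknown here. Genes and list medians whose call, sign or size changed without replicate 5, and genes whose call changed without replicate 2, are given with the lists.

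**Figure D1:**
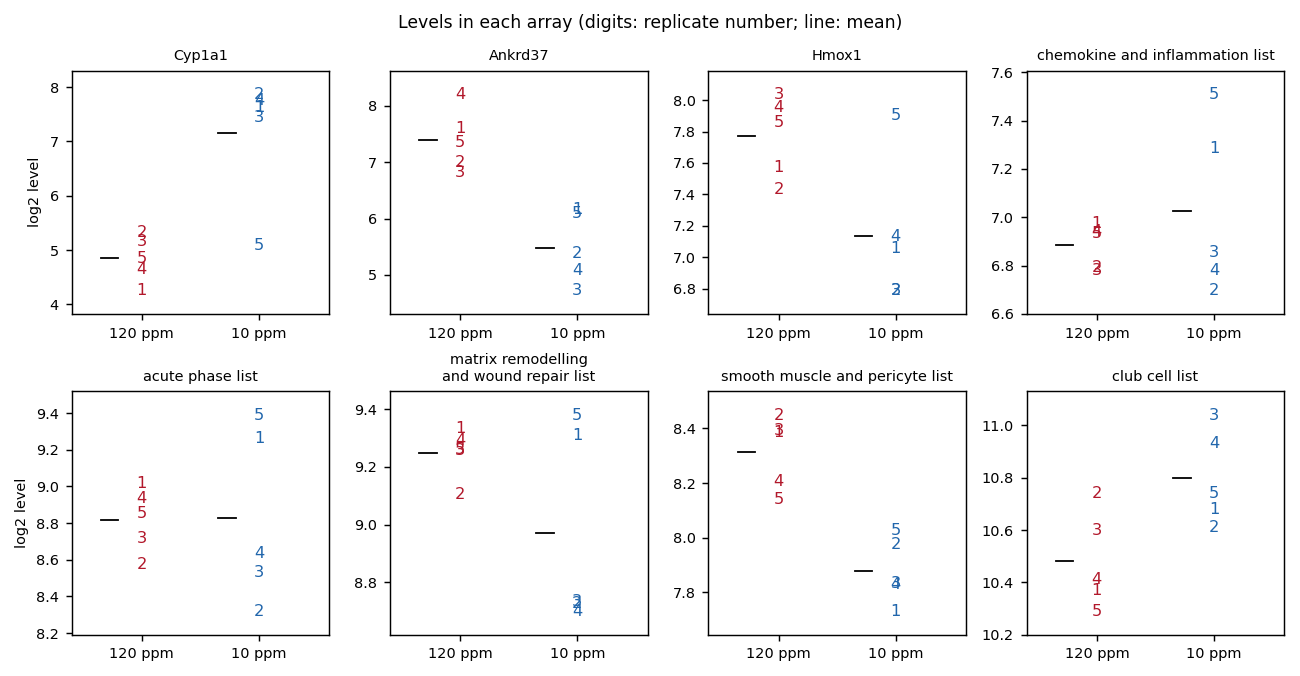
Log2 level (y axis) of 3 genes and mean log2 level of 5 gene lists in each WT lung at 120 ppm (red) and 10 ppm (blue); each digit is the replicate number of 1 array and the short line the group mean. Replicate 5 at 10 ppm sits with the 120 ppm lungs for Cyp1a1 (5.09), and replicates 1 and 5 sit above or among them for the chemokine, acute phase and matrix lists, whereas the smooth muscle and pericyte list separates the doses in all 10 lungs.

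Few genes passed the test between the lungs at 120 ppm and those at 10 ppm. Of 11406 genes, 17 were higher (0.149%) and 7 lower (0.0614%) at 120 ppm, 12 and 6 of them by at least 1.5-fold. The risers were led by Ankrd37, a target of the hypoxia-inducible factor (HIF), by 3.75-fold, and included the vasoconstrictor gene Edn1, the arterial transcription factor Sox17, the pericyte gene Rgs5 and elastin. The genes that fell included Npr3, the receptor that clears natriuretic peptides, by 2.17-fold, and the club cell marker Cckar. In whole lung, fewer cells of a type and less RNA per cell cannot be told apart.

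All 24 genes had 120 ppm and 10 ppm arrays that did not overlap, as did 1.91% of all genes tested in the higher and 0.877% in the lower direction. At an unadjusted p under 0.05, 883 genes were higher (7.74%) and 558 lower (4.89%), 1441 in all, where 570.3 would be counted at that threshold with no difference. The number that passed depended on single lungs. Leaving out the 120 ppm replicates 1 to 5 in turn gave 4, 16, 14, 3 and 2 genes, and leaving out the 10 ppm replicates 1 to 5 gave 6, 130, 12, 3 and 105. Without WT 10 ppm replicate 2, 94 genes were higher (0.824%) and 36 lower (0.316%), and without WT 10 ppm replicate 5, 68 were higher (0.596%) and 37 lower (0.324%). All 24 genes were among the 130 and among the 105. Sox17 and Rgs5 passed under each of the 21 alternatives tried, which include those 10. All 24 genes kept their direction wherever they could be tested. Without 1 lung this was fixed in advance, since their 120 ppm and 10 ppm arrays do not overlap.

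**Figure D2:**
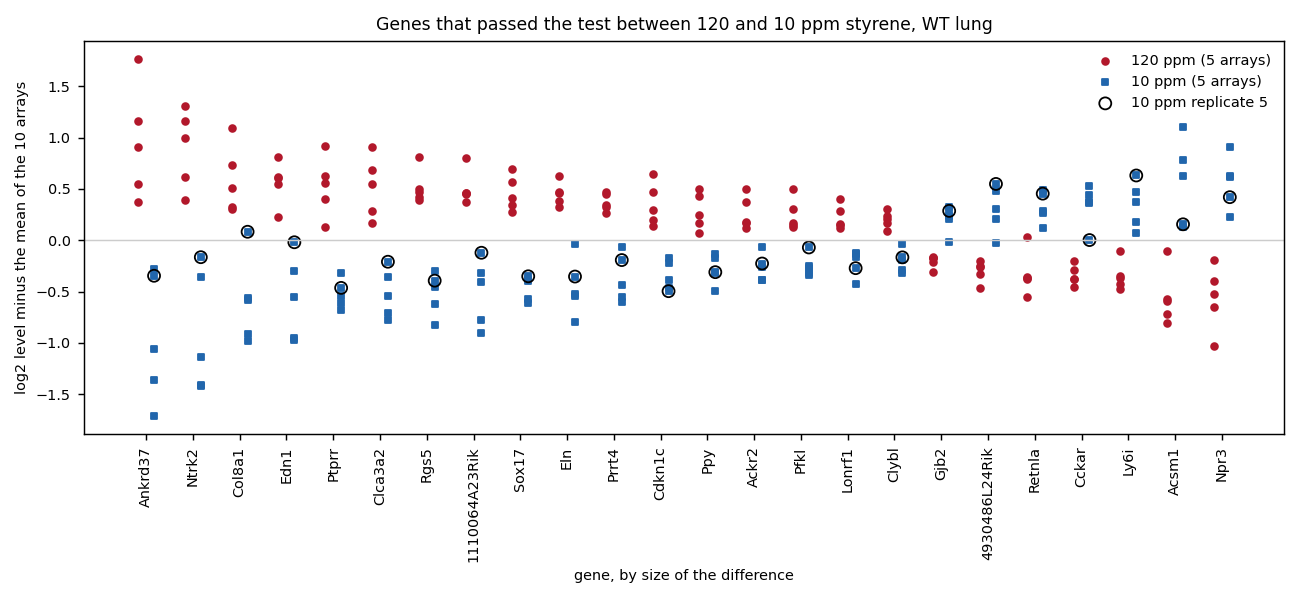
Log2 level of each array minus the mean of the 10 arrays (y axis) for the 24 genes that passed (x axis, by size of the difference), with 120 ppm lungs as red circles, 10 ppm lungs as blue squares and a ring around WT 10 ppm replicate 5. The red and blue points of every gene are apart. For several genes, among them Ankrd37, Ntrk2, Col8a1, Edn1 and Sox17, the ringed lung lies nearer to the 120 ppm lungs than at least 3 of the other 10 ppm lungs do. For Ly6i and 4930486L24Rik the ringed lung is the 10 ppm lung farthest from the 120 ppm lungs.

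Ankrd37 encodes an ankyrin repeat protein whose gene is switched on by HIF. In replicates 1 to 5, its level was 7.60, 6.99, 6.81, 8.21 and 7.34 at 120 ppm, against 6.15, 5.38, 4.73, 5.07 and 6.09 at 10 ppm. The lowest lung at 120 ppm lay above the highest at 10 ppm, and the 10 ppm lungs comprised replicates 1 and 5, which were close to each other, and 3 lower ones. The difference was 1.91 ± 0.31 (limma, adjusted p = 0.0447), or 2.06 without WT 10 ppm replicate 5 (adjusted p = 0.021). The HIF core ACGTG occurs at 2 places on the strand of the gene in the 250 bases before its start, shown in capitals in the RefSeq window (GRCm38.p6, chr8:45999851-46000100, minus strand), because Ankrd37 had the largest difference.
Ankrd37: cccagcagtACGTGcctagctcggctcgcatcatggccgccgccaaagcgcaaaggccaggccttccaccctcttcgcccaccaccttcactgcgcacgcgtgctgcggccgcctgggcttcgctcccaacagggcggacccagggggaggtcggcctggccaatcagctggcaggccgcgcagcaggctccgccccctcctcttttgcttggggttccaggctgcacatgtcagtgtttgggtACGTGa
The sites start 241 and 6 bases before the gene start. ACGTG, searched on both strands and picked after the values were seen, is held by 16.6% of the 32851 RefSeq windows of this length and by those of 2 of the 17 genes that passed and have a window. It is 1 form of the HIF core. The other form, GCGTG, has the letters of the AHR core used below, so that these letters do not tell the factors apart. GCGTG occurs in the Ankrd37 window too, left in lower case above, on both strands in overlapping sites that start 155 and 152 bases before the start.

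Other risers encode signals and regulators of the vessel wall. Edn1, the precursor of the vasoconstrictor endothelin-1, had levels of 9.17, 9.11, 8.78, 9.36 and 9.17 at 120 ppm, against 8.26, 7.997, 7.58, 7.60 and 8.54 at 10 ppm (difference 1.12 ± 0.18, limma adjusted p = 0.043). The groups did not overlap, and WT 10 ppm replicate 5 came nearest to the 120 ppm lungs. Sox17, a transcription factor of arterial endothelium, had the lowest p of all genes. It stood at 10.16, 10.01, 9.87, 10.29 and 9.94 at 120 ppm, against 9.22, 9.20, 8.99, 9.02 and 9.24 at 10 ppm, a difference of 0.92 ± 0.09 (limma, adjusted p = 0.00394). Both groups were tight, with SDs of 0.171 and 0.121 (n = 5 each). Rgs5, a regulator of G protein signals that marks pericytes, had 6.72, 6.80, 6.75, 7.15 and 6.83 at 120 ppm, against 5.51, 5.71, 5.88, 6.04 and 5.94 at 10 ppm. It rose by 1.04 ± 0.11 (limma, adjusted p = 0.00482), and no lung of one dose reached the range of the other.

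The matrix genes Eln and Col8a1 rose as well. Eln, which encodes elastin of vessel walls and alveolar rims, had 9.54, 9.37, 9.38, 9.24 and 9.29 at 120 ppm, against 8.11, 8.88, 8.39, 8.36 and 8.56 at 10 ppm, a difference of 0.90 ± 0.12 (limma, adjusted p = 0.0211). The groups did not overlap, with an SD of 0.114 at 120 ppm and 0.284 at 10 ppm (n = 5 each). Col8a1, a short-chain collagen of vessel walls, had 8.13, 7.91, 7.72, 8.49 and 7.70 at 120 ppm, against 6.42, 6.83, 6.48, 6.81 and 7.48 at 10 ppm (1.19 ± 0.20, adjusted p = 0.0462). Here WT 10 ppm replicate 5 came close to the lowest 120 ppm lung. Ntrk2, the receptor of brain-derived neurotrophic factor, had 8.43, 8.11, 7.51, 8.28 and 7.74 at 120 ppm, against 6.76, 5.98, 5.70, 5.71 and 6.95 at 10 ppm, and rose by 1.79 ± 0.27 (limma, adjusted p = 0.0264). All 120 ppm lungs were higher, and replicates 1 and 5 were the highest at 10 ppm.

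The remaining risers were of mixed function. Ptprr, a phosphatase that acts on MAP kinases, rose by 1.05 ± 0.13 (limma, adjusted p = 0.0135), with 5.47 to 6.26 at 120 ppm, against 4.66 to 5.02 at 10 ppm. Clca3a2, of the calcium-activated chloride channel regulator family, rose by 1.04 ± 0.15, with 5.31 to 6.05 at 120 ppm, against 4.36 to 4.93 at 10 ppm. This rests on 1 probe set, since the others of this gene were dim (2.72 and 2.59), with differences of 0.08 and 0.07. Whether that probe set also reads other genes of the family was not tested. Cdkn1c, the cell cycle inhibitor p57, rose by 0.70 ± 0.10, Ackr2, a receptor that scavenges chemokines, by 0.53 ± 0.09, and Pfkl, the liver-type phosphofructokinase of glycolysis, by 0.50 ± 0.08. 1110064A23Rik (1.01 ± 0.14) and Prrt4 (0.74 ± 0.10) also rose, as did Ppy, which encodes pancreatic polypeptide, by 0.57 ± 0.10. Ppy was near the bottom of the scale, at 4.08 to 4.51 at 120 ppm and 3.51 to 3.87 at 10 ppm, where the median of the whole table is 4.28. Beyond the 15 largest rises, Lonrf1 (0.45 ± 0.08) and Clybl, a mitochondrial enzyme (0.40 ± 0.07), complete the 17 and are named here after their values were seen.

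Of the genes that fell, Npr3 and Acsm1 had the largest differences. Npr3, the natriuretic peptide clearance receptor, had 7.71, 7.96, 8.17, 7.33 and 7.83 at 120 ppm, against 8.59, 8.98, 9.27, 8.99 and 8.78 at 10 ppm, and fell by 1.12 ± 0.16 (limma, adjusted p = 0.0211). Every lung at 120 ppm was lower than every lung at 10 ppm. Acsm1, a mitochondrial medium-chain acyl-CoA ligase, had 4.85, 5.55, 5.08, 4.93 and 5.06 at 120 ppm, against 5.78, 6.43, 6.76, 6.27 and 5.81 at 10 ppm, a difference of -1.12 ± 0.19 (limma, adjusted p = 0.0462). The groups did not overlap. Cckar, the cholecystokinin A receptor and one of the club cell markers, had 8.12, 8.22, 8.13, 8.05 and 8.30 at 120 ppm, against 8.88, 8.95, 9.03, 8.87 and 8.51 at 10 ppm (-0.69 ± 0.09, limma adjusted p = 0.0211). WT 10 ppm replicate 5 was the lowest of its group.

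Retnla, a secreted protein of alternatively activated macrophages and of airway epithelium, was abundant, with 12.45, 12.06, 12.05, 12.04 and 11.86 at 120 ppm, against 12.91, 12.54, 12.70, 12.68 and 12.87 at 10 ppm, and fell by 0.65 ± 0.11 (limma, adjusted p = 0.0447). The groups did not overlap, with WT 120 ppm replicate 1 close to WT 10 ppm replicate 2. Ly6i, of the Ly6 family of surface proteins, fell by 0.69 ± 0.11, with 4.76 to 5.13 at 120 ppm, against 5.30 to 5.86 at 10 ppm. 4930486L24Rik fell by 0.60 ± 0.10. Gjb2, the gap junction protein connexin 26, had 4.38 to 4.53 at 120 ppm, against 4.67 to 5.01 at 10 ppm, and fell by 0.41 ± 0.07. Gjb2 was dim, and 1 WT lung in air (5.84) and 1 at 40 ppm (6.66) were brighter than all 10 lungs compared. Disp2 (-0.89 ± 0.16, adjusted p = 0.0574), H2-Aa, a chain of MHC class II (-0.37 ± 0.07, 0.0596), and Gkn3 (-0.70 ± 0.13, 0.0613) had the next lowest p values among lower genes and did not pass the limma test, whereas each passed without WT 10 ppm replicate 5 (adjusted p of 0.0219, 0.0111 and 0.0327) and without WT 10 ppm replicate 2 (0.0453, 0.0453 and 0.0475).

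Of the genes that passed, 10 had further probe sets on the array, 23 in all. Of these, 22 had a difference in the same direction, and so had all 11 that lay above the table median. Averaging all probe sets of a gene made the difference smaller by over 1.5 times for Ntrk2 (0.73), Clca3a2 (0.40), Rgs5 (0.57) and Prrt4 (0.27).

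The genes with the best known tie to styrene or to inflammation did not pass. Cyp2f2, the club cell P450, had 12.57, 12.72, 12.73, 12.47 and 12.53 at 120 ppm, against 12.75, 12.84, 12.87, 12.87 and 12.75 at 10 ppm. The lungs at 120 ppm were all lower, by 0.21 ± 0.06, with an adjusted p of 0.209 in limma. Cxcl10, a chemokine induced by interferon, had 8.98, 8.78, 7.96, 8.94 and 8.08 at 120 ppm, against 7.51, 8.17, 8.76, 8.47 and 8.37 at 10 ppm. These groups overlapped, and the difference of 0.30 had a 95% interval of -0.26 to 0.85 (limma, adjusted p = 0.679). In air, Cxcl10 averaged 3.66 ± 0.36 (SD, n = 5), below all 10 exposed lungs.

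The call for Cyp1a1 turned on 1 lung. Its levels were 4.26, 5.33, 5.16, 4.64 and 4.85 at 120 ppm, against 7.63, 7.87, 7.43, 7.75 and 5.09 at 10 ppm. Of the 10 ppm lungs, 4 lay above every 120 ppm lung and replicate 5 lay within the 120 ppm range. The difference was -2.31 ± 0.47 (limma, adjusted p = 0.0715) with all lungs and -2.83 (adjusted p = 0.000271) without WT 10 ppm replicate 5. That lung stood out by its Cyp1a1 level, so leaving it out lowers the p of this gene by selection. The second p is a description and no support. The window before the gene start (RefSeq, GRCm38.p6, chr9:57697363-57697612, plus strand) is shown because Cyp1a1 is the standard readout of AHR. Capitals mark the letters GCGTG of the AHR core. Whether AHR binds at these letters was not tested, and sites farther from the start would lie outside the window.
Cyp1a1: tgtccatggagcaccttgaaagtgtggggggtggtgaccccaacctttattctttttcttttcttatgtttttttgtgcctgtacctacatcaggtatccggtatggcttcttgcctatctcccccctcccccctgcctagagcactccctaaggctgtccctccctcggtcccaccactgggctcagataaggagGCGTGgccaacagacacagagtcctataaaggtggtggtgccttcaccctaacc
GCGTG occurs once here on either strand, 54 bases before the start, and in 28.2% of all such windows, and in those of 6 of the 17 genes that passed and have a window. The other 6 AHR targets measured did not pass, with differences of -0.37 (Ugt1a6a, a glucuronidation enzyme) to 0.02.

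The other WT doses place the 24 genes on a scale from air upwards, given as levels with no test, since the arrays at 10 and 120 ppm are those that chose the genes. Ankrd37 averaged 5.25, 5.49, 6.29 and 7.39 at 0, 10, 40 and 120 ppm, Edn1 7.80, 7.99, 8.50 and 9.12, and Npr3 9.21, 8.92, 8.25 and 7.80. The 40 ppm mean lay between the 10 and 120 ppm means for 20 of the 24 genes. A wide gap between those means, by which the genes were chosen, favours this count, and no share over all genes is given. The 10 and 120 ppm means lay on opposite sides of the air mean for 14 genes, a count that the choice of genes favours as well. No test set the 10 ppm lungs against air. Some of the 14 had 10 ppm means close to air, such as Sox17 (9.13, against 9.15 in air). Others had means farther off, such as Lonrf1 (7.18, against 7.56 in air). Gjb2 is in both counts through single lungs, since the other 4 lungs had 4.25 to 4.37 in air, below all 10 lungs compared, and 4.18 to 4.49 at 40 ppm. For 8 genes the 120 ppm mean was the farther from air, and for Retnla and Ly6i the 10 ppm mean was.

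Retnla shows the last pattern most plainly, with averages of 10.80, 12.74, 12.10 and 12.09 at 0, 10, 40 and 120 ppm. Its lower level at 120 ppm than at 10 ppm was thus still above air. Cyp2f2 averaged 13.23, 12.81, 12.26 and 12.61 over the same doses, and Cyp1a1 7.997, 7.16, 4.57 and 4.85. For both, the lowest mean was at 40 ppm.

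**Figure D3:**
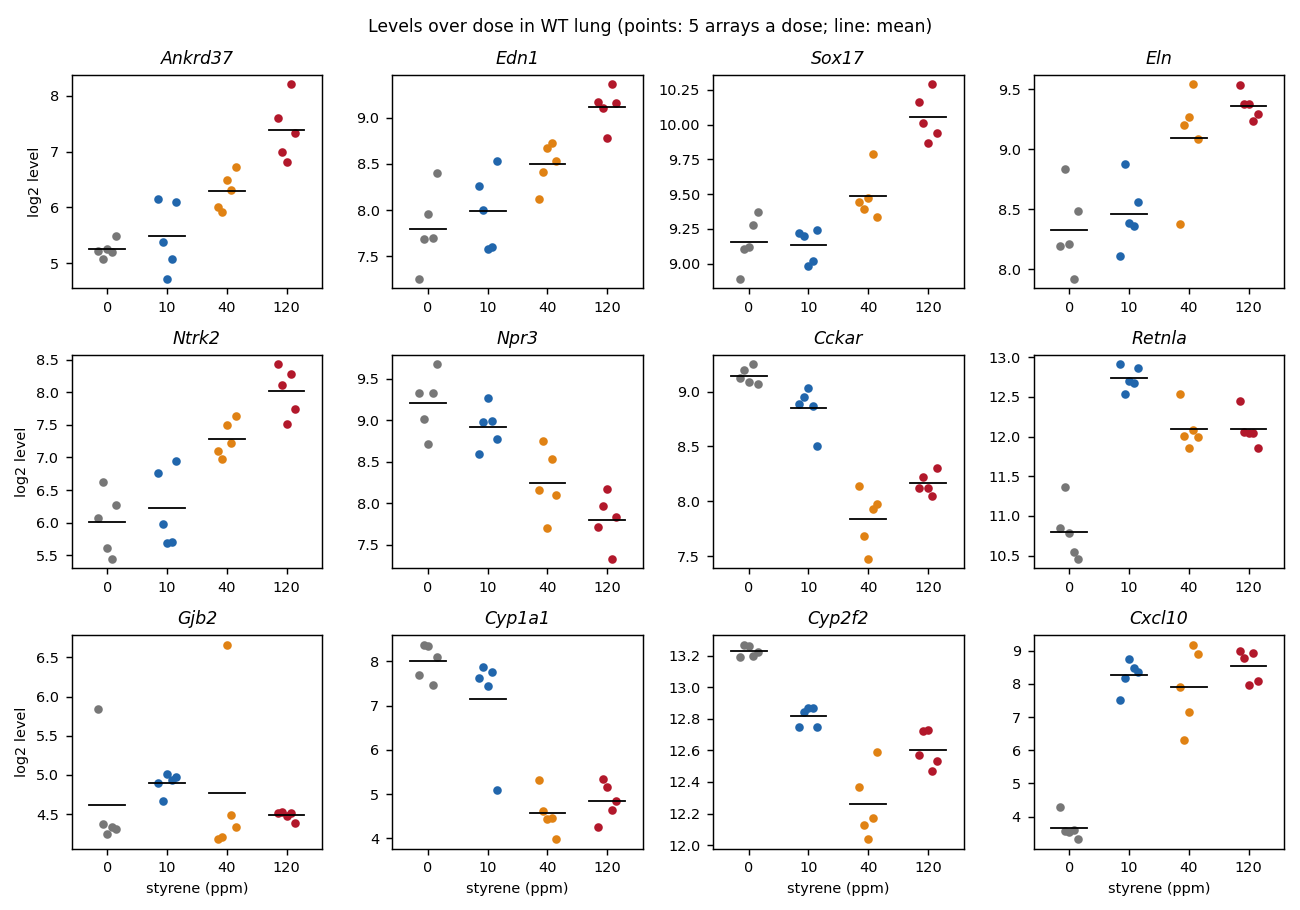
Log2 level (y axis) of 12 genes in WT lung at 0, 10, 40 and 120 ppm styrene (x axis), with 5 arrays a dose as points and the mean as a line. Ankrd37, Edn1 and Ntrk2 have their highest mean at 120 ppm, Retnla its highest at 10 ppm (12.74), and Cxcl10 is above 6 in every exposed lung and below 5 in every air lung.

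The contrast of 40 ppm with air rests on 10 other WT lungs. There, 1475 genes were higher (12.9%) and 1311 lower (11.5%) by the same test. Of the 17 genes higher at 120 than at 10 ppm, 11 were higher at 40 ppm than in air and none was lower, among them Clca3a2 (1.70 ± 0.19, adjusted p = 0.000155), Ankrd37 (1.04 ± 0.15, 0.000666) and Sox17 (0.33 ± 0.10, 0.038). Rgs5 did not pass there (0.29 ± 0.14, adjusted p = 0.162), nor did Ackr2, Lonrf1, Clybl, Prrt4 and 1110064A23Rik. Of the 7 lower genes, Cckar (-1.30 ± 0.11), Acsm1 (-1.53 ± 0.27) and Npr3 (-0.97 ± 0.21) were lower at 40 ppm than in air, whereas Retnla (1.29 ± 0.17) and Ly6i (0.45 ± 0.13) were higher.

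The gene groups were described with 40 lists, 17 of cell type markers and 23 of processes, by counts and medians. Only 4 lists held a gene that passed. For scale, the median difference over all genes was 0.01, 53.6% of all genes lay on the higher and 46.4% on the lower side, and 7.74% were higher and 4.89% lower at an unadjusted p under 0.05. Of the list members that did not pass, 14 passed without WT 10 ppm replicate 5 and 11 without WT 10 ppm replicate 2, with 4 in common. The lists hold 476 genes that were tested. Over all genes, 0.596% passed higher and 0.324% lower without replicate 5, and 0.824% and 0.316% without replicate 2. Only these omissions raised the count above 24, and each of the others gave 2 to 16 genes. Genes named below as passing without 1 of these lungs are therefore a description and no support.

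Among 15 vasoactive and hypoxia genes, Edn1 and Ankrd37 rose and Npr3 fell, 5 were higher and 1 lower at an unadjusted p under 0.05, and the median was 0.15. Adm, the vasodilator adrenomedullin, had 7.01, 6.88, 6.94, 6.84 and 6.78 at 120 ppm, against 6.04, 6.58, 5.19, 5.10 and 6.43 at 10 ppm. The groups did not overlap, and the 10 ppm lungs were the more variable (1.02 ± 0.26, limma adjusted p = 0.134, and 0.0467 without WT 10 ppm replicate 2). Bnip3 (0.38) and Ndrg1 (0.24), both HIF targets, did not overlap between doses either and did not pass (adjusted p of 0.0898 and 0.116). Vegfa, a HIF target as well, had a difference of -0.06.

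The 8 smooth muscle and pericyte markers were all on the higher side at 120 ppm, with a median of 0.36. Rgs5 passed, and 6 of 8 had an unadjusted p under 0.05, among them Notch3 (0.40) and Acta2, smooth muscle actin (0.45). The mean level of the list ran from 8.14 to 8.45 at 120 ppm and from 7.73 to 8.03 at 10 ppm, with no overlap. Without WT 10 ppm replicate 5, Acta2 passed too (0.56, adjusted p = 0.0259), and without WT 10 ppm replicate 2, Notch3 did (0.50, adjusted p = 0.0415). The 12 endothelial markers had a median of 0.05 and none passed, with Emcn, a sialomucin of capillaries and veins, the nearest (0.45, adjusted p = 0.0649). Of the 12, 8 lay on the higher and 4 on the lower side, with 2 higher and 1 lower at an unadjusted p under 0.05. The lower one was Lyve1, a marker of lymphatic vessels, with 10.33 to 10.53 at 120 ppm, against 10.59 to 10.88 at 10 ppm and no overlap (-0.26, limma adjusted p = 0.134). Without WT 10 ppm replicate 2, Emcn (0.48, adjusted p = 0.0435) and Vwf, von Willebrand factor (0.35, 0.0237), passed.

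Of 12 fibroblast and matrix markers only Eln passed, and the median was 0.05. Col1a1 (0.21), Col3a1 (-0.03) and Fn1 (0.09) did not pass. Of 17 genes of matrix remodelling and wound repair none passed and 7 were higher at an unadjusted p under 0.05, with a median of 0.27. Lox, the enzyme that crosslinks elastin and collagen, had 10.10, 9.50, 9.94, 10.11 and 9.71 at 120 ppm, against 8.87, 9.41, 9.25, 9.23 and 9.43 at 10 ppm (0.63 ± 0.14, limma adjusted p = 0.0886). The mean level of this list was 9.10 to 9.33 at 120 ppm and 8.70 to 9.38 at 10 ppm, where replicates 1 (9.31) and 5 (9.38) stood at the level of the 120 ppm lungs. Without replicate 5 the median was 0.38 and Serpina3n, a protease inhibitor, passed (0.80, adjusted p = 0.0302).

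All 13 club cell markers were on the lower side at 120 ppm, with a median of -0.26. Cckar passed, and 8 were lower at an unadjusted p under 0.05, among them Gabrp (-0.43), Scgb3a2, a secretoglobin (-0.36), and Cyp2f2 (-0.21). Scgb1a1 differed by -0.03. The mean level of the list was 10.29 to 10.74 at 120 ppm and 10.61 to 11.04 at 10 ppm, so the groups overlapped. The ciliated cell list had a median of -0.16, and those of alveolar type 1 and type 2 cells 0.08 and 0.01, with none passed. The 16 genes of airway mucus and secretion were all on the lower side too, with a median of -0.64 and none that passed. Pigr, which carries antibodies across the epithelium, was the first of them (-1.32 ± 0.29, limma adjusted p = 0.0886). The lungs overlapped widely in that list, at 7.53 to 9.28 for 120 ppm and 8.26 to 9.68 for 10 ppm.

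The immune lists held no gene that passed with all 10 lungs. The 18 interferon response genes had a median of -0.24, with 14 on the lower side and 5 lower at an unadjusted p under 0.05, such as the nucleic acid sensor Zbp1 (-0.45 ± 0.14, limma adjusted p = 0.229). Zbp1 averaged 5.05 in air, 8.08 at 10 ppm and 7.63 at 120 ppm, so its lower level at 120 ppm was still above air. The 15 genes of interferon gamma GTPases and MHC were all on the lower side, with a median of -0.29. The chemokine and inflammation list had a median of -0.08, or 0.03 without WT 10 ppm replicate 5. Its member Ptgs2, cyclooxygenase 2, had 6.29, 6.58, 6.54, 6.53 and 6.88 at 120 ppm, against 8.02, 7.12, 8.47, 7.51 and 7.16 at 10 ppm. Every 120 ppm lung was lower (-1.09 ± 0.23, limma adjusted p = 0.0886), and the gene passed without replicate 5 (adjusted p = 0.041) or replicate 2 (0.0435). Ccl3, a chemokine, passed without replicate 5 (0.51, adjusted p = 0.0272, against 0.829 with all lungs). Without WT 10 ppm replicate 2, the macrophage markers Mrc1 (-0.35, adjusted p = 0.0453) and Itgax (-0.42, 0.0467) and the acute phase and club cell list member Hp, haptoglobin (-0.29, 0.0474), passed. Medians were -0.21 for macrophage markers, -0.07 for monocytes and dendritic cells, -0.02 for neutrophils, 0.14 for B cells and -0.05 for T and NK cells.

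No gene of the stress, growth and metabolism lists passed with all 10 lungs. In the NRF2 and glutathione list the median was -0.01 over 25 genes, and Hmox1, heme oxygenase 1, had 7.43 to 8.04 at 120 ppm, against 6.79 to 7.90 at 10 ppm. Its highest 10 ppm value was that of replicate 5, without which Hmox1 passed (0.83, adjusted p = 0.0237). The 30 genes of styrene and xenobiotic metabolism had a median of -0.07, with 8 lower and 1 higher at an unadjusted p under 0.05, namely Sult1a1, a sulfotransferase (0.50, adjusted p = 0.0988). Mitosis genes had a median of 0.22 and DNA replication genes one of 0.08. The glucocorticoid response list had 6 of 17 genes higher at an unadjusted p under 0.05 and a median of 0.16, and the immediate early list 5 of 15 and 0.14. The median was 0.14 for sterol synthesis, 0.11 for PPAR and fatty acid oxidation, -0.05 for fatty acid synthesis and for CAR and PXR targets, 0.06 for p53 targets and for the circadian clock, 0.05 for the unfolded protein response, -0.08 for heat shock, -0.16 for the acute phase and 0.14 for metallothioneins.

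Without WT 10 ppm replicate 5, 8 genes of these lists passed (limma). Besides Hmox1, these were the lipid genes Acaa2, a thiolase of fatty acid oxidation (0.36, adjusted p = 0.0308), Plin2, a lipid droplet coat protein (0.41, 0.0259), and Scd1, a fatty acid desaturase (-0.33, 0.0493). The others were Tk1, thymidine kinase (0.47, adjusted p = 0.0366), and the metabolic enzymes Aldh1a7 (-0.37, 0.0237), Ces1g (-0.57, 0.0129) and Aox3 (-0.46, 0.021). Acaa2 (adjusted p = 0.0435) and Scd1 (0.0331) also passed without WT 10 ppm replicate 2.

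Some list medians moved by over 1.5 times or changed sign without WT 10 ppm replicate 5. The sign changed for the circadian clock (-0.006), neutrophils (0.06), cardiac muscle (0.07), erythroid cells (-0.007) and, as given above, chemokines. The median without that lung was -0.04 for the acute phase, 0.30 for metallothioneins, 0.27 for the glucocorticoid response, -0.10 for ciliated cells, -0.13 for T and NK cells, 0.21 for cornified epithelium, -0.08 for CAR and PXR targets, 0.12 for DNA replication and 0.16 for PPAR and fatty acid oxidation.

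Markers of tissues that border the lung varied between single lungs. The 8 adipose markers had a median of -0.85, with a mean level of 4.95 to 8.58 at 120 ppm and 6.41 to 7.79 at 10 ppm, and 0 of 8 passed. The medians were -0.01 for cardiac muscle, -0.25 for mesothelium, 0.04 for erythroid cells and 0.02 for cornified epithelium. Krt4, a keratin of stratified epithelium, was 7.44 in WT 120 ppm replicate 4 and 3.51 to 3.92 in the other lungs at that dose. It was higher still in WT air replicate 1 (12.48) and WT 40 ppm replicate 3 (12.57). Both of those lungs enter the dose means and the contrast of 40 ppm with air, and they are the lungs with bright Gjb2 (5.84 and 6.66). The part of these tissues in the results was not tested.

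**Figure D4:**
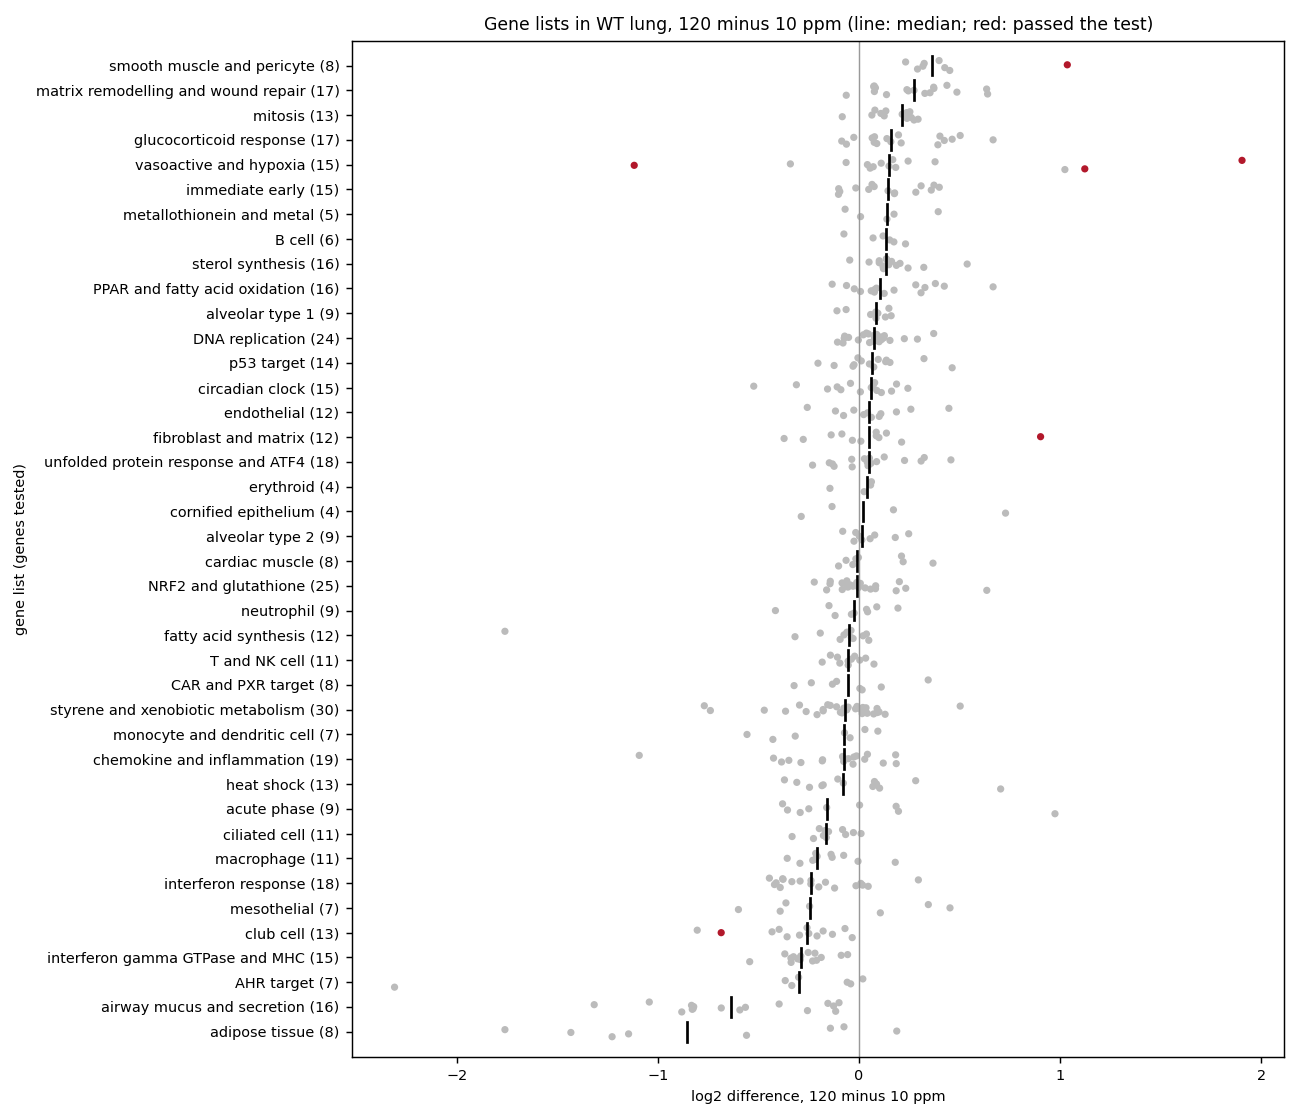
Log2 difference at 120 ppm minus 10 ppm in WT lung (x axis) for each tested gene of the 40 lists (y axis, with the number of genes tested), with the list median as a black line and genes that passed in red. Medians run from 0.36 for the smooth muscle and pericyte list to -0.85 for the adipose list, and 6 points are red.

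The same contrast was run in the other strains to see whether the 24 genes moved there. The level of Cyp2f2, the gene that the KO label names, was 11.63 ± 0.17 at 120 ppm and 11.67 ± 0.12 at 10 ppm in KO lungs, and 11.80 ± 0.14 and 11.75 ± 0.18 in TG lungs (SD, n = 5 each). These were below the WT means of 12.61 and 12.81 but far above the table median of 4.28. Whether the probe set lies inside the deleted part of the gene is unknown here, so this signal does not check the KO label. None of the 11406 genes passed between 120 and 10 ppm in lungs of KO, TG or CD-1 mice (0% in each). At an unadjusted p under 0.05 by limma there were 484, 1040 and 679 genes, against 1441 in WT and 570.3 with no difference. In CD-1 the count that passed was 17 without its 120 ppm replicate 3 and 0 or 1 without any other array. In KO it was 2 without its 10 ppm replicate 1 and 0 otherwise, and in TG it was 0 each time. The differences of the 24 genes ranged from -0.47 to 0.30 in KO lungs, from -0.37 to 0.87 in TG lungs and from -0.94 to 0.53 in CD-1 lungs. The 17 genes that rose in WT had a median of -0.03 in KO lungs, 0.21 in TG lungs and 0.09 in CD-1 lungs. Of these, 8, 15 and 11 were on the higher side in KO, TG and CD-1 lungs. The 7 genes that fell in WT had medians of -0.11, 0.10 and 0.07 there, with 7, 2 and 3 on the lower side. Ankrd37, at 1.91 ± 0.31 in WT, had 0.06 ± 0.13 in KO lungs, 0.44 ± 0.15 in TG lungs and 0.23 ± 0.19 in CD-1 lungs.

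A difference in 1 strain and not in another is no difference between them, so that was tested itself, on 20 arrays per pair of strains. The WT arrays among them are those that chose the 24 genes, which favours these genes in the test. Counts among the 24 are therefore a description. Between WT and KO, 6 genes passed (0.0526%), among them 3 of the 24: Clca3a2 (1.04 in WT and -0.14 in KO, difference 1.18 ± 0.21), Sox17 (0.92 and 0.09, difference 0.83 ± 0.15) and Ppy (0.57 and -0.10, difference 0.67 ± 0.12), each with a limma adjusted p of 0.0458. Efr3b, an adaptor at the plasma membrane (0.77 in WT and -0.14 in KO), and Hilpda, a HIF-induced lipid droplet protein (0.60 and -0.21), passed as well. This count was 0 without WT 120 ppm replicates 1, 4 or 5, WT 10 ppm replicates 1, 3 or 4, KO 120 ppm replicates 2, 3 or 5, and KO 10 ppm replicates 1, 2, 3 or 5. It was 33 without WT 10 ppm replicate 5, 11 without KO 120 ppm replicate 4, 2 without KO 10 ppm replicate 4, and 1 without WT 10 ppm replicate 2 or KO 120 ppm replicate 1.

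Between WT and TG, 3 genes passed (0.0263%). Ntrk2 was 1.79 in WT and -0.37 in TG (difference 2.17 ± 0.36, limma adjusted p = 0.0335), Npr3 -1.12 in WT and 0.46 in TG (difference -1.58 ± 0.25, adjusted p = 0.0335), and Efr3b 0.77 in WT and -0.28 in TG (adjusted p = 0.0402). The count was 14 without WT 10 ppm replicate 5, 5 without WT 120 ppm replicate 2, WT 10 ppm replicate 1 or TG 10 ppm replicate 3, and 1 without TG 120 ppm replicate 1. It was 0 without WT 120 ppm replicates 1 or 4, WT 10 ppm replicates 2, 3 or 4, TG 120 ppm replicates 2, 3 or 4, and TG 10 ppm replicates 1, 2 or 4, and 2 without the others.

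Between WT and CD-1, 15 genes passed (0.132%), with the directions opposed in several. Eln was 0.90 ± 0.12 in WT and -0.94 ± 0.23 in CD-1 (difference 1.84 ± 0.28, limma adjusted p = 0.0185), and Adm 1.02 ± 0.26 in WT and -1.10 ± 0.19 in CD-1 (difference 2.13 ± 0.35, adjusted p = 0.0185). Angptl4, a secreted inhibitor of lipoprotein lipase, differed in the same way (0.42 in WT and -1.12 in CD-1), and Zbp1 the other way (-0.45 in WT and 1.15 in CD-1, difference -1.60 ± 0.28, adjusted p = 0.0379). Clca3a2 (difference 1.20 ± 0.20) and Prrt4 (0.80) passed too, so that 3 of the 24 genes, chosen on the same WT arrays, passed. Leaving out WT 120 ppm replicates 1 to 5 in turn gave 5, 5, 4, 5 and 3 genes, and WT 10 ppm replicates 1 to 5 gave 22, 23, 4, 3 and 24. Leaving out CD-1 120 ppm replicates 1 to 5 gave 9, 12, 34, 6 and 9, and CD-1 10 ppm replicates 1 to 5 gave 26, 11, 5, 7 and 5.

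**Figure D5:**
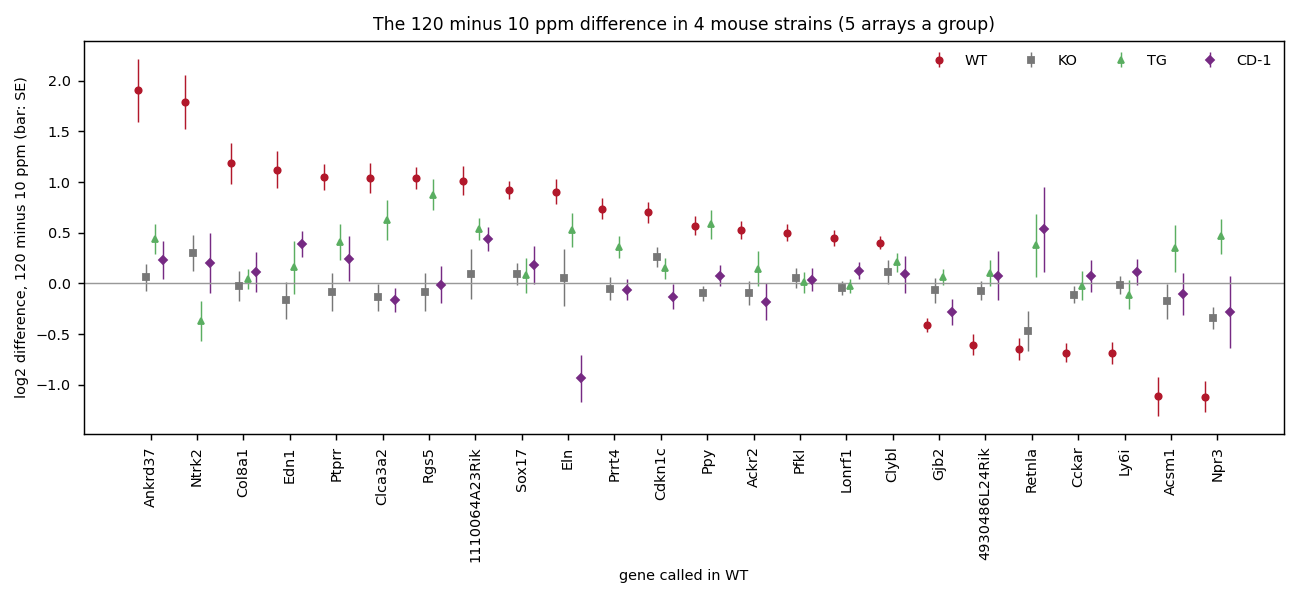
Log2 difference at 120 ppm minus 10 ppm (y axis, bars are the standard error, 5 arrays a group) for the 24 genes that passed in WT (x axis), in WT, KO, TG and CD-1 lungs. WT was chosen for these genes, so its points are a description, and the other strains run from -0.94 (Eln in CD-1) to 0.87 (Rgs5 in TG).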

How the data were processed

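The values are log2 signal of 45037 probe sets as deposited. RMA and Partek are named in the submitters' processing notes without a version, and other settings are unknown here. Total RNA was labelled with an Affymetrix HT 3' IVT kit, per the labels. Of the probe sets, 28898 had 1 gene symbol, 551 had several and 15588 were unnamed, and the last 2 kinds were left out. Symbols were updated through the gene ID in RefSeq for 28689. Each gene was read from its brightest probe set on average over the 80 arrays. Genes above the table median (4.28) in at least 5 arrays were tested, 11406 of 17097. The 10 arrays were fitted with limma 3.58.1 (lmFit and eBayes, R 4.3.3), with 8 residual and 3.55 prior degrees of freedom, and p values were adjusted by Benjamini-Hochberg at 0.05. The method was tested on simulated data.

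The members, lists and tests were chosen with earlier results of these data known. Named by rule were up to 15 rises and 15 falls that passed with each array beyond the mean of the other dose, the next lowest p values to make 10 falls, list members by p (up to 4 that passed, or else 2), up to 5 and 5 by size in other contrasts, and Cyp2f2, Cyp1a1 and Cxcl10. Acta2, Bnip3, Ndrg1, Vegfa, Notch3, Gabrp, Scgb3a2, Col1a1, Col3a1, Fn1, Vwf, Mrc1, Ccl3, Serpina3n, Plin2, Aox3 and other genes outside the rule were named after their values were seen. Alternatives changed the arrays in the fit, the filter, the probe sets, the scaling, the variance model, array weights and the replicate block, and left out each array in turn.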

Additional observations from a re-analysis of the deposited data

Results flagged for a closer look

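Within the 5 lungs of a dose, 10 of 214 groups (107 genes named by the rule, at 120 and 10 ppm) held 1 lung far from the other 4, and chance alone gives about 1 in 20. At 120 ppm these were Rgs5, the pericyte gene, at 7.146 in replicate 4 (others 6.72 to 6.83), 1110064A23Rik at 6.60 in replicate 3 (6.18 to 6.26), Krt4 at 7.44 in replicate 4 (3.51 to 3.92), Cdkn1a, a p53 target, at 9.50 in replicate 2 (9.69 to 9.74) and Stk36 at 5.15 in replicate 5 (5.43 to 5.54). At 10 ppm they were Cyp1a1 at 5.09 in replicate 5 (7.43 to 7.87), Tk1, thymidine kinase, at 5.71 in replicate 5 (5.16 to 5.31), Cd209a at 7.03 in replicate 1 (6.21 to 6.38), Klf4 at 9.48 in replicate 1 (9.80 to 9.86) and Cd3g, a T cell receptor chain, at 6.56 in replicate 4 (6.01 to 6.12).

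The difference between 120 and 10 ppm passed as unlike between WT and another strain for these genes (limma). It is given as WT minus the other strain. Against KO it was 1.175 for Clca3a2, 0.90 for Efr3b, 0.83 for Sox17, 0.81 for Hilpda and 0.67 for Ppy, each with an adjusted p of 0.0458. Against TG it was 2.165 for Ntrk2 and -1.58 for Npr3 (adjusted p = 0.0335) and 1.05 for Efr3b (0.0402). Against CD-1 it was 2.13 for Adm, 1.84 for Eln, 1.54 for Angptl4 and 1.20 for Clca3a2 (adjusted p = 0.0185). With an adjusted p of 0.0379 it was 1.53 for Prkag3, a subunit of AMP-activated kinase, -1.60 for Zbp1, -1.45 for Stk36, -1.43 for Ppp1r14d, -1.14 for Slco1a5, an organic anion carrier, and -1.03 for AW011738. Clca3a2, Sox17, Ppy, Ntrk2, Npr3 and Eln were chosen on the same WT arrays, which favours them, so their p values are a description. Without 1 array, no gene passed in 13 of 20 fits against KO and in 11 of 20 against TG, and 3 to 34 passed against CD-1. Against KO none passed either without a filter or with array medians subtracted.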

How the results depend on the processing

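The count of 24 genes (17 higher, 7 lower) was 46 with the 15 exposed WT arrays in 1 fit, 103 with the 20 WT arrays, 54 with an intensity trend in eBayes, 170 with array weights and 14 with each array minus its median, of which 21, 22, 23, 24 and 14 were among the 24. With the replicate number as a block (replicate block) it was 4, though deviations of same-numbered lungs correlated at only -0.11 to 0.072 and 0 of 5 lungs correlated best with its own number. Other filters, quantile normalization, the mean of probe sets and robust eBayes gave 19 to 34. Leaving out 1 lung gave 2 to 130. Where fewer arrays remain the test has fewer degrees of freedom, and otherwise the cause was not tested. Of 240 values of the 24 genes without 1 lung, 139 did not pass. None of the 240 changed sign, which was fixed in advance, since the arrays of the doses do not overlap in these genes. Of 263 values under other settings, 45 did not pass and none changed sign. The difference between WT and KO gave 6 genes, and 0 without a filter, 0 with array medians subtracted, 2 with the replicate block and 0 to 33 without 1 array. Between WT and TG the 3 genes became 0 with the block and 0 to 14 without 1 array, and between WT and CD-1 the 15 became 2 with the block and 3 to 34 without 1 array. Leaving out 1 array gave 0 to 2 genes in KO and 0 to 17 in CD-1, 0 in TG, and 2201 to 2802 for 40 ppm against air. Levels of Ppy and Gjb2 lay near the table median (4.28), and no measure of background was used.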
